A study of Mus musculus with 18 samples.

Results

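Gene expression in Ly-6C(hi) monocytes of mouse bone marrow was compared between 4 arrays labelled Zeb2-deficient and 4 arrays of Zeb2-sufficient controls, 8 of the 18 arrays of the series. The arrays were chosen by their labels, and all genes of the table were used. Controls carried Zeb2(fl/fl) alleles without Cre, and the mice labelled deficient were Zeb2(fl/fl);Mx1-Cre(tg), all on C57BL/6. Both groups had received poly(I:C), a mimic of double-stranded RNA that induces interferon, in 2 doses of 150 µg, injected within 48 h, with bone marrow harvested 3 weeks afterwards. The untreated control array of the same cell type stayed out. Mx1-Cre is driven by an interferon-inducible promoter and acts in many cell types, so the deletion was not limited to monocytes. Because controls lacked Cre, what Cre does by itself and what follows Zeb2 loss cannot be told apart. Whether each array is a separate animal is not stated by the labels, so p-values measure only how the fitted arrays spread, and that spread may be technical.

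Zeb2 encodes a zinc-finger transcription factor that binds E-boxes of the CACCTG type and mostly represses its targets, best known from the epithelial to mesenchymal transition. Monocytes and neutrophils descend from shared marrow progenitors. Developing neutrophils make their granule proteins in order: primary granule proteases in promyelocytes, secondary granule proteins in myelocytes, and gelatinase granule and other late proteins as the cells mature. Monocytes with high Ly-6C instead carry the chemokine receptor Ccr2 and the growth factor receptor Csf1r.

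All levels below are log2 intensities of a microarray, 1 probe set a gene, and a change is the mean of the deficient arrays minus the mean of the control arrays, so that 1 unit is 2-fold. Of 19938 genes, 13387 passed a filter on low values and were tested with limma, and a gene is said to have risen or fallen at a Benjamini-Hochberg adjusted p under 0.05. Arrays are called control 1, 2, 4 and 5 and deficient 1 to 4, the numbers being those of the labels. The series is listed in 2 runs that each hold both genotypes, here array set A (control 1 and 2, deficient 1 and 2) and array set B (control 4 and 5, deficient 3 and 4). Arrays of a set deviated from their group means together, but the labels name no batch. Deficient 2 stood nearest to the controls: over the genes that rose, its median distance from the control mean was 0.44, against 0.87, 1.04 and 1.15 in deficient 1, 3 and 4. Control 4 and 5 had higher neutrophil granule transcripts than control 1 and 2, as given with those genes. With the number of arrays limiting the precision, results are given within the sets and without single arrays where that matters.

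The sorted cells carried monocyte markers on every array. The 7 measured Ly-6C(hi) monocyte markers had mean levels of 10.63 to 10.81 in controls, 9.4 to 10.57 in deficient arrays and 4.73 to 4.89 in control neutrophils of the same series, and 3 of the 7 fell (Csf1r, Ms4a6c and Cx3cr1). Ly6c2, the sort marker, shares its probe sets with Ly6c1 and was not used. The 8 neutrophil markers had mean levels of 5.94 to 7.38 in controls, 9.3 to 10.26 in deficient arrays and 12.01 to 12.13 in control neutrophils, and 7 of the 8 rose. The 5 promyelocyte markers had 6.5 to 9.04 in controls and 8.87 to 11.16 in deficient arrays, and 5 of the 5 rose. In control neutrophils they had 4.76 to 5.1, about the array medians of 4.81 to 4.92. The deficient samples thus held transcripts of both early and late granulocytes beside those of monocytes, and the part that other cells in the sort had in the results below was not tested. In such bulk samples, fewer cells of a type and less RNA per cell cannot be told apart. Markers of eosinophils, mast cells or basophils, dendritic cells, B cells, T or NK cells and erythroid cells had mean levels of at most 4.89 in both groups, and the macrophage markers at most 5.15. Within these sets Siglecf, Ccr9 and Vcam1 rose and Flt3 fell, so the means do not show that such cells were absent. Only 2 of 5 erythroid markers were measured, Klf1 and Alas2. The 4 megakaryocyte markers had 4.2 to 5.84 in controls and 4.6 to 5.52 in deficient arrays, and 0 of them were called.

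Zeb2 was read at 10.08, 9.88, 9.88 and 9.86 in control 1, 2, 4 and 5 and at 9.75, 9.84, 9.46 and 8.74 in deficient 1 to 4. The deficient arrays were all below the controls, deficient 2 by the least and deficient 4 by the most. The change of -0.48 ± 0.24 (SE) did not pass the test (adjusted p = 0.272), and within the sets it was -0.18 (A) and -0.77 (B, adjusted p = 0.035). The probe set covers the whole transcript, so the level does not check the deleted part.

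Of the 13387 genes, 1010 (7.54%) passed the test, 684 higher (5.11%) and 326 lower (2.44%) in the deficient monocytes. The counts of every list below are to be read beside these shares. The rises were larger than the falls: 266 genes (1.99%) rose and 38 (0.284%) fell by at least 2-fold, 304 in all (2.27%). The median change was 0.86 among the risen and -0.66 among the fallen, and -0.03 over all genes tested. There were 65 genes that rose by at least 2 log2 units, 20 by at least 3 and 6 by at least 4, whereas 0 fell by 2 log2 units, the deepest fall being -1.99 for Hpgd. The groups' arrays did not overlap for 1344 genes (10%), 819 with deficient arrays higher (6.12%) and 525 lower (3.92%). An unadjusted p under 0.05 was reached by 2699 genes. Leaving out deficient 2 gave 2001 calls (1050 higher, 951 lower), and leaving out deficient 3 or 4 gave 621 or 620. The fall in particular depended on single arrays, with 132 genes lower without deficient 4 and 200 when replicate number was a block. That block compares only the same-numbered pairs 1, 2 and 4, since deficient 3 and control 5 have no partner of their number. Fitting the monocyte arrays alone gave 397 genes higher and 103 lower. Of the 118 genes named by rule and called, 87 passed with the monocyte arrays alone and 56 within set A.

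**Figure D1:**
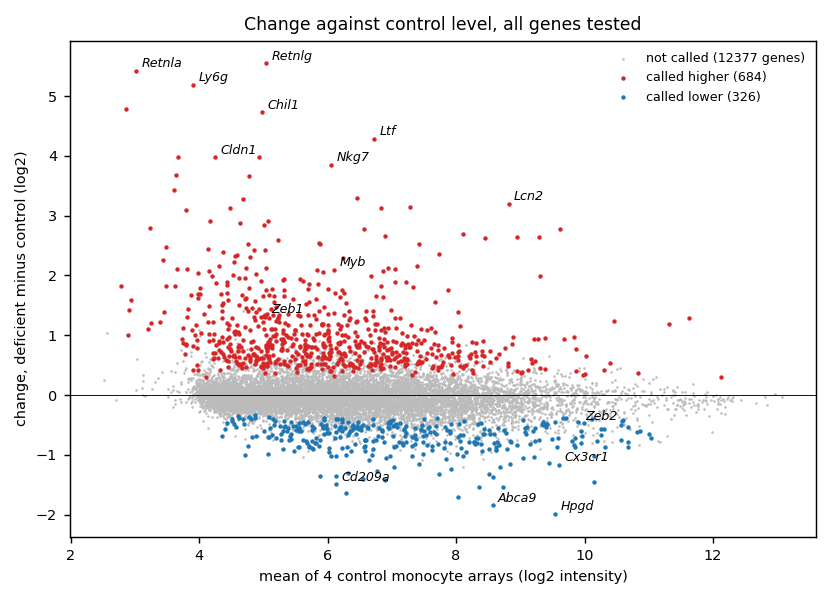
Each point is 1 of the 13387 genes tested, with the mean log2 level of the 4 control monocyte arrays on the x axis and the change (deficient minus control, log2) on the y axis, red for the 684 genes higher, blue for the 326 lower and grey for the rest. The highest points reach 5.55 (Retnlg) and sit at low to middle control levels, while the lowest reach -1.99 (Hpgd), and Zeb2 lies at -0.48.

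Retnlg, a resistin-like protein secreted by granulocytes, had a measured change of over 5 log2 units, as had Ly6g and Retnla. It was read at 5.04, 4.4, 5.77 and 4.95 in the controls and at 10.95, 9.85, 10.93 and 10.62 in deficient 1 to 4, a rise of 5.55 ± 0.24 (SE), or 46.8-fold (adjusted p = 5.88e-11). Every deficient array was over 4 log2 units above the highest control. Ly6g, the surface protein by which mouse neutrophils are sorted, was read at 3.59, 3.59, 4.48 and 3.95 in controls and at 9.59, 8.35, 9.16 and 9.24 in deficient arrays (change 5.18 ± 0.22 SE, adjusted p = 5.88e-11). Even the lowest deficient array, deficient 2, stood well above the controls, which lay near the floor. Stfa3, a stefin that inhibits cysteine proteases, went from 2.57, 3.06, 2.48 and 3.31 to 8.35, 6.32, 8.02 and 7.84, a change of 4.78 ± 0.33 (SE, adjusted p = 7.69e-08). Chil1, a chitinase-like protein, went from 4.77, 4.95, 5.78 and 4.43 to 10.36, 8.71, 9.84 and 9.93, a change of 4.73 ± 0.28 (SE, adjusted p = 1.05e-08). Control neutrophils read 12.3 for Retnlg, 11.84 for Ly6g, 10.06 for Stfa3 and 10.98 for Chil1, above every deficient monocyte array.

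Retnla and Clec4b2 rose although control neutrophils read them at low levels. Retnla, a resistin-like protein known from alternatively activated macrophages, was read at 3.17, 2.67, 3.46 and 2.77 in controls and at 8.49, 6.36, 9.47 and 9.44 in deficient arrays (change 5.43 ± 0.47 SE, adjusted p = 1.24e-06), against 4.1 in control neutrophils. Clec4b2, a C-type lectin receptor, was read at 4.64, 4.6, 5.74 and 4.75 and then at 9.13, 7.61, 9.26 and 9.68 (change 3.99 ± 0.37 SE, adjusted p = 2.13e-06), against 5.24 in neutrophils. For both genes the deficient arrays were above the neutrophil mean, and for both deficient 2 was the lowest of them. Cldn1, a claudin of tight junctions, rose from 4.07, 4.24, 4.61 and 4.09 to 8.79, 7.63, 8.27 and 8.22 (change 3.98 ± 0.26 SE, adjusted p = 5e-08), close to the neutrophil mean of 7.81. Il1f9, an interleukin-36 cytokine, rose by 3.98 ± 0.33 (SE, adjusted p = 6.73e-07). Slco4c1, an organic anion transporter, rose by 3.68, Gca, a calcium-binding protein of granulocytes, by 3.28, and Actn1, an actin cross-linker, by 3.13. These named rises passed without any 1 array and within set A alone. Control levels of Retnla, Stfa3 and Il1f9 lay below the array's 40th percentile (4.28 to 4.37) on 4 of 4 arrays. So did those of Stfa2, Slc40a1, Marveld2, Krt18, Il18rap and Il18r1, described later. Those of Ly6g, Cldn1 and Slco4c1 did so on 3 of 4. At such low control levels the size of these changes is uncertain. In all, 24 tested genes passed the filter only through the deficient arrays, and 12 of them were called.

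**Figure D2:**
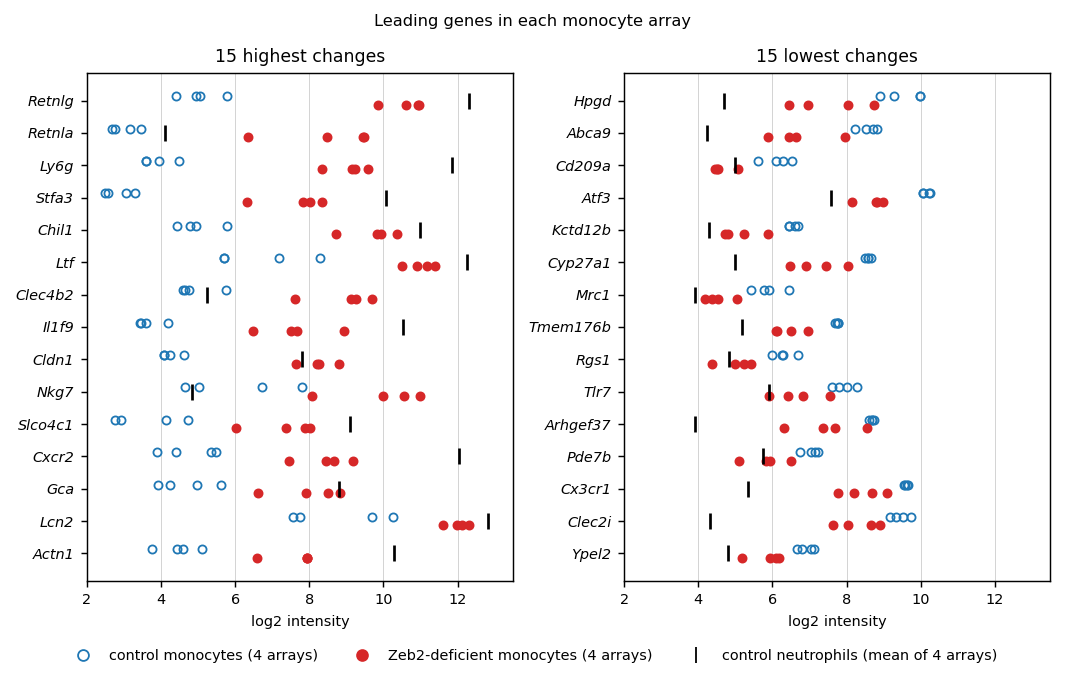
Log2 intensity in each monocyte array (x axis) of the 15 genes with the highest changes (left) and the 15 with the lowest (right), open blue circles for the 4 controls, filled red circles for the 4 deficient arrays and a black bar for the mean of the 4 control neutrophil arrays. On the left the red circles lie toward the neutrophil bars for most genes, with Retnla, Clec4b2 and Nkg7 beyond theirs, and on the right they lie below the controls, most of them above the neutrophil bars, with 3 of 4 below the bar for Cd209a (4.99).

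Promoter sequences were set beside the changes to show where the E-box of Zeb factors occurs in genes that moved. They are the 250 bases before the RefSeq start of each gene (mouse GRCm38.p6), from 5′ to 3′ along the gene, with CACCTG or its reverse complement CAGGTG in capitals. Retnlg (chr16:48872358-48872607), Il1f9 (chr2:24186226-24186475) and Slco4c1 (chr1:96872172-96872421, minus strand) are shown as genes among the 15 highest rises that hold the motif, and Tmem176b (chr6:48841138-48841387, minus strand) as one among the 15 lowest.
Retnlg: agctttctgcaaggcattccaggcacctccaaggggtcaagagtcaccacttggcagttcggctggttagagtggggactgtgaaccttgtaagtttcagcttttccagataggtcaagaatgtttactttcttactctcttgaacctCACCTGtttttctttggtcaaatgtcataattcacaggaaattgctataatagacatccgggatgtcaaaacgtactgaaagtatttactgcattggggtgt
Il1f9: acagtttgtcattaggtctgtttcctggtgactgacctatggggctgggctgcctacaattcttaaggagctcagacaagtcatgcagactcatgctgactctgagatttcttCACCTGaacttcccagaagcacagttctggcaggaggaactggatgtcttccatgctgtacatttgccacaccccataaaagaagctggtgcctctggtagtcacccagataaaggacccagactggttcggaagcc
Slco4c1: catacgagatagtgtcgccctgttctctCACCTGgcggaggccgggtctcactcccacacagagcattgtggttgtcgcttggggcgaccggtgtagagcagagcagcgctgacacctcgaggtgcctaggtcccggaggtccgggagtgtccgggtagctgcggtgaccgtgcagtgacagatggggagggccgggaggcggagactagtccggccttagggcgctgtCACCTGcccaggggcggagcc
Tmem176b: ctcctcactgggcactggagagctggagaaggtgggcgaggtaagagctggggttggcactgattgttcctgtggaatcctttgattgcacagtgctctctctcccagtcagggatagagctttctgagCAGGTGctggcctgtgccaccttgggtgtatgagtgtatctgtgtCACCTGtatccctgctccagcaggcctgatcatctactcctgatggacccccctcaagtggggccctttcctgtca
In Retnlg the motif begins 102 bases before the start and in Il1f9 137 bases before it. Counted on both strands over 300 bases, from 250 before to 50 after the start, the motif was in 18.5% of the 10628 tested genes with a promoter in the table. It was in 126 of 558 genes that rose (22.6%) and in 37 of 271 that fell (13.7%). Of the 15 highest rises, Ltf, Cxcr2 and Gca held it too. It was not in Retnla, Ly6g, Stfa3, Chil1, Clec4b2, Cldn1, Nkg7, Lcn2 or Actn1. Hpgd, with the deepest fall, also held the motif. Among lists of genes it was in 11 of 20 gelatinase granule and mature neutrophil genes (55.0%), in 2 of 17 secondary granule genes (11.8%) and in 1 of 17 primary granule genes (5.88%). Lists with few or no calls held it more often, with 6 of 7 T and NK cell genes (85.7%) and 4 of 6 B cell genes (66.7%). A match of letters is a description, not a binding site, and these shares were not tested.

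Of 19 tested genes of primary granules, the first granules of the neutrophil lineage, 14 rose and 0 fell, against 5.11% and 2.44% of all genes, and the median change was 1.35 (0.95 in set A, 1.75 in set B). The mean level of the list was 7.57, 7.55, 8.54 and 8.13 in control 1, 2, 4 and 5 and 9.66, 8.67, 9.85 and 10.04 in deficient 1 to 4. No deficient array was below the highest control, but deficient 2 exceeded control 4 only narrowly. Control neutrophils were below both, at 6.92 to 6.99, so the list moved away from the level of control neutrophils. The serine proteases Elane, Ctsg, Prtn3 and Prss57 rose. Elane, neutrophil elastase, was read at 7.08, 6.64, 9.78 and 8.96 in controls and at 10.94, 9.28, 11.44 and 11.56 in deficient arrays (change 2.69 ± 0.58 SE, adjusted p = 0.00707, and 0.0572 with the monocyte arrays alone). Mpo, the myeloperoxidase, was read at 8, 7.42, 10.66 and 9.72 and then at 11.82, 10.55, 11.92 and 12.06 (change 2.64 ± 0.61 SE, adjusted p = 0.0117). For both, deficient 2 overlapped control 4, and control neutrophils read 4.98 for Elane and 5.44 for Mpo. Ctsg and Prtn3, cathepsin G and proteinase 3, rose by 2.67 and 2.36, and Prss57 by 2.32. The ficolin Fcnb rose by 3.13 ± 0.33 (SE, adjusted p = 9.86e-06), from 6.15 to 7.8 in controls to 9.09 to 10.34, and the granulocyte-monocyte progenitor gene Ms4a3 by 3.29 ± 0.58 (SE, adjusted p = 0.00148). Nkg7, a granule membrane protein also of cytotoxic lymphocytes, went from 4.66, 5.02, 7.81 and 6.73 to 9.99, 8.08, 10.56 and 10.98 (change 3.85 ± 0.64 SE, adjusted p = 0.000767). Lyz2, the lysozyme that monocytes and neutrophils share, was at 12.84 in controls and 12.68 in deficient arrays (adjusted p = 0.242), and Ctsc, the protease that activates the granule proteases, at 10.39 and 10.03 (adjusted p = 0.546).

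Of 21 tested secondary granule genes, made at the myelocyte stage, 16 rose and 0 fell, with a median change of 1.99 (1.96 in set A, 1.82 in set B). The mean level of the list was 7.5, 7.55, 8.58 and 8.2 in controls, 10.16, 9.48, 10.14 and 10.08 in deficient 1 to 4, and 11.13 to 11.35 in control neutrophils. Deficient 2 was again the lowest of its group, though here well clear of the controls. Ltf, lactoferrin, was read at 5.7, 5.71, 8.3 and 7.17 in controls and at 11.4, 10.5, 11.18 and 10.92 in deficient arrays (change 4.28 ± 0.40 SE, adjusted p = 2.32e-06), against 12.26 in neutrophils. Lcn2, a lipocalin that binds bacterial siderophores, was read at 7.56, 7.76, 10.26 and 9.69 and then at 12.32, 11.61, 12.13 and 11.99 (change 3.19 ± 0.41 SE, adjusted p = 7.89e-05). The controls of set B were over 1 log2 unit above those of set A in both genes, and the change was accordingly 5.25 in set A and 3.32 in set B for Ltf and 4.3 and 2.09 for Lcn2. Camp, the cathelicidin, and Ngp, a granule protein of myelocytes, followed the same pattern, with changes of 2.77 (3.79 in set A, 1.75 in set B) and 2.65 (3.49 and 1.82). The tetraspanin Cd63, counted among the lysosomal genes described later, also had higher controls in set B. It was read at 5.7, 5.45, 9.46 and 8.48 in controls and at 10.14, 9.29, 11.03 and 11.24 in deficient arrays. Its change of 3.15 ± 0.65 (SE, adjusted p = 0.00482) was 4.14 for set A against 2.17 for set B, and it did not pass with the monocyte arrays alone (adjusted p = 0.061). Olfm4, the olfactomedin of a subset of neutrophils, rose by 2.88 ± 0.28 (SE, adjusted p = 3.96e-06), with set B (3.39) above set A (2.36). The collagenase Mmp8 rose by only 0.78 (adjusted p = 0.0151, and 0.106 with the monocyte arrays alone), from controls that already stood at 9.73 to 10.01. Cd177, a neutrophil surface protein, was at 8.65 in controls and 9.01 in deficient arrays (adjusted p = 0.413), and the chitinase-like Chil3, which monocytes also make, at 11.11 and 11.41 (adjusted p = 0.53).

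Among genes of gelatinase granules and mature neutrophils, 19 of 24 rose and 1 fell, with a median change of 1.77 (1.92 in set A, 1.88 in set B). The mean level of the list was 6.01, 6.01, 6.75 and 6.61 in controls, 8.49, 7.69, 8.59 and 8.56 in deficient 1 to 4 and 10.76 to 10.85 in control neutrophils, so the deficient monocytes stood nearer to the controls than to neutrophils. Mmp9, the gelatinase, was read at 4.38, 4.03, 4.48 and 4.56 in controls and at 7.55, 5.77, 7.1 and 6.62 in deficient arrays, a change of 2.39 ± 0.26 (SE, adjusted p = 1.44e-05), and remained far below the 11.87 of neutrophils. Cxcr2, the chemokine receptor that draws neutrophils out of marrow, was read at 3.88, 4.4, 5.49 and 5.36 and then at 9.19, 7.46, 8.66 and 8.46 (change 3.66 ± 0.32 SE, adjusted p = 1.24e-06), against 12.05 in neutrophils. In both genes the deficient arrays were clear of the controls and at least 2 log2 units short of neutrophils. Il1r2, the decoy receptor for interleukin-1, rose by 2.91, the stefin Stfa2 by 3.1, Lrg1 by 2.52, and the triggering receptors Trem1 and Trem3 by 2.16 and 2.07. The calprotectin subunits S100a8 and S100a9 rose by 1.18 and 1.29 from control means of 11.32 and 11.63; S100a8 lost its call without any of 4 single arrays (control 1, control 2, deficient 3 or deficient 4, adjusted p up to 0.07), and with the monocyte arrays alone neither S100a8 nor S100a9 passed (adjusted p = 0.112 and 0.0576). Csf3r, the receptor for the neutrophil growth factor G-CSF, was at 8.76 ± 0.14 (SD, n = 4) in controls and 8.76 ± 0.11 (SD, n = 4) in deficient arrays (adjusted p = 0.989), against 11.17 in neutrophils. The one gene of this list that fell was the chemokine Ccl6, from 10.68 to 9.9 (change -0.78 ± 0.15 SE, adjusted p = 0.0035), although neutrophils read 11.17.

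**Figure D3:**
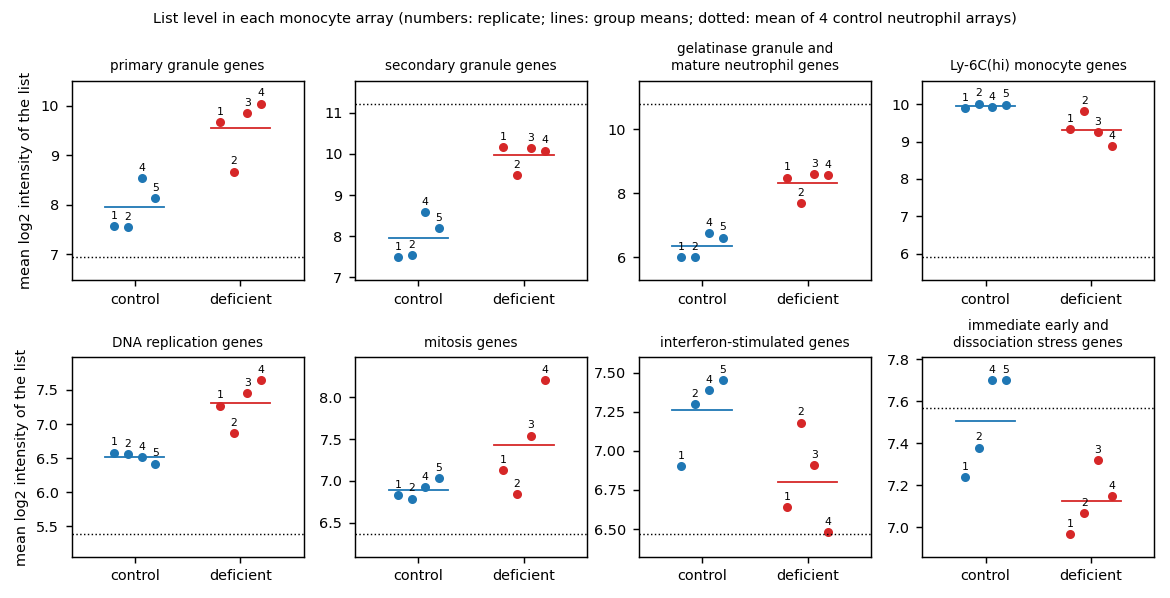
Mean log2 intensity (y axis) of 8 gene lists in each monocyte array, blue for the 4 controls and red for the 4 deficient arrays, with the replicate number at each point, a line at each group mean and a dotted line at the mean of the 4 control neutrophil arrays. Primary granule genes stand above the neutrophil line in both groups, secondary and gelatinase genes below it, and deficient 2 is the lowest red point for the 3 granule lists and for DNA replication and mitosis.

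Over the 684 genes that rose, the deficient monocyte mean was at least 1 log2 unit above the control neutrophil mean for 174, at least 1 below it for 186 and within 1 for 324. Over all tested genes these numbers were 1774, 817 and 10796. Genes that rose therefore included many that exceeded neutrophils as well as many that fell short of them.

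Of 26 tested genes typical of Ly-6C(hi) monocytes 10 fell, 0 rose and 16 were not called, 25 had a change below 0 (57.4% of all genes did), and the median change was -0.7. The mean level of the list was 9.89, 10.02, 9.93 and 9.99 in controls, a narrow range, and 9.34, 9.82, 9.26 and 8.87 in deficient 1 to 4, with deficient 2 just under the controls. Set A had a median of -0.34 and set B of -1. The count of falls rested on single arrays: 19 fell without deficient 2, 3 without control 5, and 6 when replicate number was a block. In the same arrays the mean level of the 8 neutrophil markers was 9.3 to 10.26 against 5.94 to 7.38 in controls, and their part in these falls was not tested. Tmem176b, a membrane protein of myeloid cells, was read at 7.73, 7.69, 7.76 and 7.76 in controls and at 6.13, 6.97, 6.5 and 6.09 in deficient arrays (change -1.32 ± 0.18 SE, adjusted p = 0.000145). Its controls were tight and every deficient array was below them. Cx3cr1, the fractalkine receptor, was read at 9.54, 9.62, 9.58 and 9.67 and then at 7.78, 9.08, 8.68 and 8.19 (change -1.17 ± 0.27 SE, adjusted p = 0.011). Ccl9, a chemokine of myeloid cells, fell by 0.87 ± 0.17 (SE, adjusted p = 0.00285), from 10.25 to 10.46 in controls to 8.92 to 9.94. Set A alone did not pass for these 3 genes. Csf1r, the receptor that monocytes need for survival, went from 9.59, 9.78, 9.41 and 9.47 to 8.64, 9.61, 8.48 and 8.03 (change -0.87 ± 0.23 SE, adjusted p = 0.0275). Deficient 2 lay among its controls, and the call was lost without any of 6 single arrays (control 1, 2 or 5, deficient 1, 3 or 4, adjusted p up to 0.105). Among the 7 markers checked above, Ms4a6c was the other that fell (change -0.62, adjusted p = 0.0377, lost without any single array but deficient 1 or 2), and Ccr2, Fn1, F13a1 and Ly86 were not called. Ccr2, the receptor for marrow exit, was at 11.28, 11.2, 11.07 and 11.14 in controls and at 10.56, 10.8, 10.31 and 9.88 in deficient arrays, which did not overlap, but the change of -0.78 ± 0.24 (SE) missed the threshold (adjusted p = 0.0557). Fibronectin, Fn1, had a change of -0.61 (adjusted p = 0.0865), and F13a1, a coagulation factor subunit, -0.77 (adjusted p = 0.0517, and 0.0359 when replicate number was a block).

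Genes of Ly-6C(low) monocytes, the patrolling cells that derive from Ly-6C(hi) monocytes, moved in both directions. Of 15 tested genes 3 fell and 1 rose, with a median change of -0.09 (5 fell without deficient 2). Adgre4, an adhesion receptor, was read at 8.33, 8.1, 8.06 and 7.6 in controls and at 5.6, 7.75, 5.98 and 5.94 in deficient arrays (change -1.7 ± 0.33 SE, adjusted p = 0.00287). Deficient 2 alone overlapped the controls. Clec4a3, an inhibitory lectin, went from 10.15 ± 0.03 to 9.13 ± 0.59 (SD, n = 4 each; adjusted p = 0.0119). Nr4a1, the nuclear receptor that Ly-6C(low) monocytes require, fell from 7.12, 7.44, 7.97 and 7.95 to 6.68, 6.78, 6.96 and 6.39 (change -0.92 ± 0.21 SE, adjusted p = 0.0107). It is also an immediate early gene, and its controls were higher in set B. The gene that rose, Pglyrp1, is a peptidoglycan-binding protein of neutrophil granules too (change 2.63 ± 0.37 SE, adjusted p = 0.000177) and reads 12.3 in neutrophils.

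The 15 lowest changes among genes whose groups did not overlap ran from -1.99 for Hpgd to -1.05 for Ypel2, and Adgre4, whose groups overlapped, had -1.7. Hpgd, the dehydrogenase that inactivates prostaglandins, was read at 9.99, 9.98, 9.28 and 8.9 in controls and at 8.03, 8.74, 6.97 and 6.45 in deficient arrays (change -1.99 ± 0.38 SE, 3.97-fold, adjusted p = 0.00271). The groups did not overlap, though deficient 2 lay just under control 5. Abca9, a lipid transporter of the ABC family, went from 8.71, 8.81, 8.53 and 8.23 to 6.45, 7.96, 6.63 and 5.87 (change -1.84 ± 0.30 SE, adjusted p = 0.000746). Cyp27a1, the sterol 27-hydroxylase of cholesterol breakdown, fell from 8.58 ± 0.07 to 7.21 ± 0.67 (SD, n = 4 each; adjusted p = 0.0011). The lectin receptors Cd209a and Mrc1 fell too. Cd209a, related to the dendritic cell lectin DC-SIGN, was read at 6.29, 6.53, 6.1 and 5.61 and then at 4.46, 5.06, 4.54 and 4.5 (change -1.49 ± 0.18 SE, adjusted p = 5.07e-05), and it passed within set A as well. Mrc1, the mannose receptor, fell from 5.42, 5.9, 6.46 and 5.76 to 4.18, 5.04, 4.38 and 4.52 (change -1.35 ± 0.21 SE, adjusted p = 0.000445), reaching the lower part of the array's range. Within set A alone Abca9, Cyp27a1 and Mrc1 did not pass. The remaining lowest changes were Kctd12b (-1.4), Tlr7 (-1.24), the exchange factor Arhgef37 (-1.21), the phosphodiesterase Pde7b (-1.2), the lectin-like Clec2i (-1.13) and Ypel2 (-1.05). Arhgef37 lost its call without deficient 3 (adjusted p = 0.058) and when replicate number was a block (0.0687), and Pde7b without deficient 4 or control 5 (up to 0.0698).

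Of 23 macrophage and monocyte-derived scavenger genes, 7 fell and 3 rose, the risen being Clec4b2, Vcam1 and Slc40a1. Without deficient 4 only 4 fell. Vcam1, an adhesion molecule of marrow macrophages and stroma, was read at 4.67, 4.6, 6 and 4.84 in controls and at 6.87, 5.37, 8.78 and 8.8 in deficient arrays (change 2.43 ± 0.54 SE, adjusted p = 0.00817, and 0.0743 with the monocyte arrays alone). The iron exporter Slc40a1, ferroportin, rose by 2.26 ± 0.30 (SE, adjusted p = 9.53e-05). The complement genes C1qa, C1qb and C1qc, which resident macrophages express strongly, had changes of 0.03, 0.28 and 0.09 and were not called. The transferrin receptor Tfrc, by which cells take up iron, rose by 1.61 ± 0.19 (SE, adjusted p = 4.01e-05) from 4.53, 4.75, 4.77 and 4.79 to 6.41, 5.66, 6.34 and 6.88. None of the other 8 erythroid genes tested was called.

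Among transcription factors, Cebpe, Gfi1, Ets1 and Bhlhe40 rose and Irf4 fell, while Spi1, Irf8, Klf4 and Cebpa did not pass the test. Of 38 myeloid lineage factors 6 rose and 2 fell (median change -0.1), against 5.11% and 2.44% of all genes. Falls numbered 8 without deficient 2 and 1 without deficient 1, deficient 4 or control 5. Cebpe, the factor for secondary granule genes, was read at 5.27, 6.04, 6.96 and 6.72 in controls and at 8.31, 7.57, 9.08 and 9.2 in deficient arrays (change 2.29 ± 0.32 SE, adjusted p = 0.000177), around the 8.95 of neutrophils. Gfi1, a repressor needed for neutrophil development, went from 5.17, 4.97, 5.16 and 5.2 to 6.06, 5.68, 6.5 and 6.66 (change 1.1 ± 0.16 SE, adjusted p = 0.00024). Both were above the controls on every deficient array. Ets1 rose by 1.96 ± 0.22 (SE, adjusted p = 2.36e-05) and Bhlhe40, a repressor linked to cell cycling and the clock, by 1.35 ± 0.21 (SE, adjusted p = 0.000494). Irf4, an interferon regulatory factor of monocyte-derived cells, fell from 6.34, 6.35, 6.15 and 5.69 to 4.77, 6.05, 4.08 and 4.22 (change -1.35 ± 0.30 SE, adjusted p = 0.00883, and 0.0695 with the monocyte arrays alone), with deficient 2 among the controls. Spi1, which encodes PU.1, was at 9.23 in both groups (adjusted p = 0.981). Irf8, a determinant of monocyte fate, was at 8.07 ± 0.05 (SD, n = 4) in controls and 7.88 ± 0.43 (SD, n = 4) in deficient arrays (adjusted p = 0.637). Klf4, required for Ly-6C(hi) monocytes, had a change of -0.76 ± 0.24 (SE, adjusted p = 0.0666), and Cebpa one of -0.39 (adjusted p = 0.109).

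Of 15 stem and progenitor genes 4 rose and 1 fell. Myb, a factor of dividing progenitors, was read at 5.87, 5.89, 6.44 and 6.21 in controls and at 8.31, 6.92, 8.61 and 8.92 in deficient arrays (change 2.09 ± 0.29 SE, adjusted p = 0.000139). Kit, the receptor for stem cell factor, went from 4.2, 4.57, 4.92 and 4.4 to 6.33, 5.4, 7.02 and 7.36 (change 2.01 ± 0.29 SE, adjusted p = 0.000256). Neither overlapped between the groups, and in both deficient 2 was the closest to the controls. Prom1 and the ETS factor Erg rose by 1.84 and 1.68. Control neutrophils of this marrow sort read all 4 at 6.05 to 7.89, above the array medians of 4.81 to 4.92. Flt3, the receptor of dendritic cell and lymphoid progenitors, fell by 0.88 ± 0.20 (SE, adjusted p = 0.0107). Its groups overlapped, and it did not pass with the monocyte arrays alone (adjusted p = 0.0761) or within set A (adjusted p = 0.483). Stem cell genes such as Meis1, Hlf and Procr had changes of -0.35, 0.35 and 0.02 and were not called.

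Among relatives and partners of Zeb2, Zeb1 and Id2 rose and Tcf4 fell, 3 of the 13 genes tested. Zeb1, the closest relative, was read at 5.2, 4.91, 5.28 and 4.74 in controls and at 6.43, 5.76, 6.77 and 6.41 in deficient arrays (change 1.31 ± 0.18 SE, adjusted p = 0.000133), against 7.31 in neutrophils. Id2, an inhibitor of E proteins, went from 8.19, 8.38, 8.51 and 8.19 to 9.61, 8.67, 9.17 and 9.33 (change 0.88 ± 0.18 SE, adjusted p = 0.00395). Tcf4, an E protein of plasmacytoid dendritic cells, went from 6.77, 7.19, 7.06 and 7.09 to 5.88, 6.53, 5.91 and 6.3 (change -0.87 ± 0.17 SE, adjusted p = 0.00252). The groups were separate in each of these 3 genes, and Id2 and Tcf4 did not pass within set A alone. The other E proteins, Tcf3 and Tcf12, had changes of -0.02 and 0.08 and the corepressors Ctbp1 and Ctbp2 of 0.02 and -0.04, none of them called.

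Epithelial genes that Zeb factors repress were mostly at low levels, and 5 of 18 rose and 0 fell (median change 0.09). Beside Cldn1, Cd24a, a sialoglycoprotein of neutrophils as well as of epithelia, was read at 9.31, 8.97, 9.61 and 9.36 in controls and at 11.45, 10.76, 11.45 and 11.55 in deficient arrays (change 1.99 ± 0.15 SE, adjusted p = 1.86e-07). Dsp, which encodes the desmosomal protein desmoplakin, went from 4.36, 4.38, 4.68 and 4.59 to 6.62, 5.09, 5.46 and 6.03 (change 1.3 ± 0.22 SE, adjusted p = 0.00118), while control neutrophils read 4.76. Marveld2, a tight junction gene, rose by 0.94 (adjusted p = 0.00225) to a mean of 4.67. The keratin Krt18 lost its call under several settings, among them the replicate number as a block (adjusted p = 0.139) and leaving out any of 6 single arrays (control 1, 2, 4 or 5, deficient 3 or 4, up to 0.156). Cdh1, E-cadherin and the best known target of Zeb factors, was at 4.19 in controls and 4.15 in deficient arrays (adjusted p = 0.891), at the level of undetected genes. The E-box of Zeb factors was in 10 of the 12 of these genes with a promoter in the table (83.3%, against 18.5% of tested genes), a share that belongs to the list and not to its risen members.

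Of 41 tested DNA replication genes 26 rose and 0 fell, 41 had a change above 0 (42.6% of all genes did), and the median change was 0.77 (0.45 in set A, 1.05 in set B). The mean level of the list was 6.58, 6.56, 6.52 and 6.42 in controls and 7.27, 6.87, 7.45 and 7.64 in deficient 1 to 4, with no overlap, against 5.32 to 5.45 in control neutrophils. Within set A alone 3 of the 41 passed and within set B 35, and 17 passed when replicate number was a block. Cdc25a, the phosphatase that opens S phase, was read at 5.67, 5.7, 5.84 and 5.59 in controls and at 7.38, 6.59, 7.74 and 8.18 in deficient arrays (change 1.77 ± 0.25 SE, adjusted p = 0.000177). The replicative helicase subunit Mcm2 went from 6.63, 6.45, 6.27 and 6.41 to 7.79, 7.16, 8.02 and 7.72 (change 1.23 ± 0.15 SE, adjusted p = 3.98e-05). The helicase loader Cdc6 went from 5.34, 5.31, 5.03 and 5.52 to 6.51, 6.4, 6.17 and 6.47 (change 1.09 ± 0.14 SE, adjusted p = 7.55e-05). In Cdc6 deficient 2 was in the middle of its group, unlike in most risen genes. Cyclin E2, Ccne2, rose by 1.26, the ribonucleotide reductase subunit Rrm2 by 1.28 and the chromatin remodeller Hells by 1.34 (adjusted p = 0.00379, and 0.0755 when replicate number was a block). Pcna, the sliding clamp, had a change of 0.38 and was not called.

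Promoters of this list were searched for the E2F motif (TTTCCCGC, TTTGGCGC, TTTCGCGC or TTTGCCGC on either strand), since E2F factors drive genes of S phase. The 250 bases before the RefSeq start (GRCm38.p6) of Cdc25a (chr9:109875329-109875578) and Hells (chr19:38930740-38930989), the members with the largest rises, are shown with the motif in capitals.
Cdc25a: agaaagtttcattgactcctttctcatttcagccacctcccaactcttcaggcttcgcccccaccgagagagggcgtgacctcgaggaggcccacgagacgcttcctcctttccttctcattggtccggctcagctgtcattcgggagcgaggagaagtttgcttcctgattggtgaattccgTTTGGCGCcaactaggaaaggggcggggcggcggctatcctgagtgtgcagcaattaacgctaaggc
Hells: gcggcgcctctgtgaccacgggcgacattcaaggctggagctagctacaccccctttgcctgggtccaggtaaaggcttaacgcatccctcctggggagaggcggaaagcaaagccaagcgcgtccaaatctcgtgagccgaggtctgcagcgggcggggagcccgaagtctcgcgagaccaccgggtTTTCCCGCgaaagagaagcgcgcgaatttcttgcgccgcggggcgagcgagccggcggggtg
The motif begins 67 bases before the start in Cdc25a and 62 bases before it in Hells. It was in 13 of 35 DNA replication promoters (37.1%), in 3.92% of tested genes, in 8.42% of those that rose and in 1.48% of those that fell.

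Mitosis genes moved less surely. Of 35 tested genes 4 rose (Ccnb2, Mad2l1, Nuf2 and Anln, by 0.54 to 0.87) and 0 fell, and 33 had a change above 0, with a median of 0.58 (0.24 in set A, 0.89 in set B). Their mean level was 6.83, 6.79, 6.93 and 7.03 in controls and 7.13, 6.84, 7.54 and 8.2 in deficient arrays, so that deficient 2 lay among the controls and deficient 4 far above them. Without deficient 2 there were 23 called, without any of control 1, control 2, control 5, deficient 3 or deficient 4 there was 1, and when replicate number was a block there were 0. Mki67, the proliferation marker, was read at 9.18, 9, 9.25 and 9.31 in controls and at 9.64, 9.28, 9.93 and 10.29 in deficient arrays (change 0.6 ± 0.19 SE, adjusted p = 0.0567). Cdk1 had a change of 0.82 ± 0.29 (SE, adjusted p = 0.102), from 6.65 to 7.48, carried by deficient 3 and 4 (7.86 and 8.57). The growth regulator Myc rose by 1.54 ± 0.23 (SE, adjusted p = 0.000326), from 6.05, 6.53, 6.36 and 6.22 to 7.45, 7.39, 8.06 and 8.4. Of the other 32 ribosome biogenesis genes tested, 2 rose and 1 fell, by at most 0.51 in size, and of 34 mitochondrial ribosome and respiratory chain genes 0 were called (median change -0.04; 1 was called without control 2, Idh3a).

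Interferon-stimulated genes lay lower in the deficient monocytes, 3 weeks after poly(I:C), but few passed. Of 38 tested genes 4 fell and 0 rose, against 2.44% and 5.11% of all genes. A change below 0 was seen in 35 (57.4% of all genes had one), and the median was -0.49 (-0.16 in set A, -0.73 in set B). The mean level of the list was 6.9, 7.3, 7.39 and 7.45 in controls and 6.64, 7.18, 6.91 and 6.48 in deficient 1 to 4, and the groups overlapped because control 1 was low and deficient 2 high. Without deficient 2, 17 fell, and without deficient 1, deficient 4 or control 5, 0 did. The 4 called genes were Lgals3bp, Phf11d, Ddx60 and Ifi203, with changes of -0.61 to -0.83 and adjusted p = 0.0448, 0.0235, 0.0306 and 0.0267. Each lost its call without several single arrays. Oas1a, which senses double-stranded RNA, was read at 7.05, 7.92, 8.24 and 8.25 in controls and at 6.5, 7, 7.4 and 6.81 in deficient arrays (change -0.94 ± 0.32 SE, adjusted p = 0.0884, and 0.00921 when replicate number was a block). Mx2 and Ifit3, antiviral effectors, had changes of -0.75 and -0.72 (adjusted p = 0.0773 and 0.373). An interferon response element (GAAA, any 2 bases, GAAA), searched on both strands, was in 15 of 28 of these promoters (53.6%), in 3.01% of tested genes, in 6.64% of genes that fell and in 2.15% of those that rose.

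Of 31 immediate early and dissociation stress genes tested 9 fell and 0 rose, against 2.44% and 5.11% of all genes. The other 22 were not called, and the median change of the list was -0.37. With replicate number as a block 11 fell and 1 rose. The mean level was 7.24, 7.38, 7.7 and 7.7 in controls and 6.97, 7.07, 7.32 and 7.15 in deficient arrays, and the controls of set B stood above those of set A. Atf3, a stress-induced factor, was read at 10.23, 10.07, 10.24 and 10.06 in controls and at 8.79, 8.82, 8.99 and 8.15 in deficient arrays (change -1.46 ± 0.19 SE, adjusted p = 7.89e-05). All 4 deficient arrays were lower by over 1, deficient 2 included, and the gene passed within set A. Rgs1, a regulator of G protein signalling, went from 6.29, 6.69, 6 and 6.26 to 4.38, 5.43, 5 and 5.24 (change -1.3 ± 0.27 SE, adjusted p = 0.00482). Fos, the classic immediate early gene, went from 8.14, 8.52, 8.94 and 9.06 to 7.64, 7.79, 8.04 and 7.84 (change -0.84 ± 0.17 SE, adjusted p = 0.00424). The mRNA decay factor Zfp36 fell by 0.53 and Btg2 by 0.48 from tight groups (adjusted p = 0.00447 and 0.00834). Fosb and Jun had changes of -1.2 and -0.78 (adjusted p = 0.063 and 0.21, and 0.0045 and 0.0199 when replicate number was a block).

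Receptors that set how cells respond to chemoattractants and cytokines moved both ways. Among 21 chemoattractant receptors 7 rose and 2 fell. The rises numbered 3 without deficient 3 and 4 without control 4 or deficient 4, and the falls 4 without deficient 2 and 1 without any other array. Next to Cxcr2, Gpr84, a receptor for medium-chain fatty acids, was read at 4.05, 4.11, 5.39 and 5.38 in controls and at 6.32, 5.99, 7.46 and 7.64 in deficient arrays (change 2.12 ± 0.35 SE, adjusted p = 0.000818). C5ar1, the receptor for complement C5a, went from 6.11, 6.59, 6.38 and 7.23 to 8.36, 7.81, 7.64 and 7.62 (change 1.28 ± 0.23 SE, adjusted p = 0.00179), and here set A moved more (1.74) than set B (0.83). Among 27 growth factor and cytokine receptors 4 rose and 4 fell. Il18rap and Il18r1, the chains of the interleukin-18 receptor, rose by 2.44 ± 0.22 (SE, adjusted p = 1.53e-06) and 1.83 ± 0.20 (SE, adjusted p = 1.33e-05). Their controls lay below the 40th percentile on 4 of 4 arrays, so the size of these changes is uncertain. Il18rap was read at 4.23, 4.04, 4.18 and 4.11 in controls and at 6.75, 5.67, 6.8 and 7.12 in deficient arrays. The ligand Il18 moved the other way, from 6.31, 6.1, 6.36 and 6.65 to 5.26, 5.61, 5.87 and 4.95 (change -0.93 ± 0.23 SE, adjusted p = 0.0154), a call lost without deficient 4 or control 5. Tnfsf13b, which encodes the B cell factor BAFF, rose by 0.91 ± 0.18 (SE, adjusted p = 0.00461). Receptors that fell included Csf1r and Flt3, and without deficient 2 there were 12 lower, against 1 without any of control 1, control 2, control 5, deficient 3 or deficient 4.

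Pattern recognition receptors lay lower, with 4 of 28 fallen and 1 risen, against 2.44% and 5.11% of all genes. Their median change was -0.42 (-0.16 in set A, -0.72 in set B). Falls numbered 11 without deficient 2, and 2 without control 1, deficient 1, 3 or 4 and when replicate number was a block. Tlr7, which senses single-stranded RNA, was read at 7.62, 8.27, 7.79 and 8 in controls and at 6.41, 7.56, 6.82 and 5.92 in deficient arrays (adjusted p = 0.00461). Clec7a, the β-glucan receptor dectin-1, went from 8.84, 8.99, 8.99 and 8.99 to 8.15, 8.6, 8.17 and 7.53 (change -0.84 ± 0.16 SE, adjusted p = 0.00318). Both were lower on every deficient array, and neither passed within set A. Among 25 Fc and paired immunoglobulin-like receptors 6 rose and 2 fell, against 5.11% and 2.44% of all genes. In that list 10 fell without deficient 2, and 1 without control 2, 4 or 5 or deficient 3 or 4. Trem1, an amplifier of neutrophil and monocyte responses, was read at 4.59, 4, 4.54 and 4.13 in controls and at 7.51, 5.97, 6.46 and 5.97 in deficient arrays (adjusted p = 2.49e-05). The collagen receptor Lair1 went from 6.19, 6.76, 6.71 and 7.15 to 7.89, 7.24, 8.51 and 8.81 (change 1.41 ± 0.26 SE, adjusted p = 0.00219), above the 6.31 of neutrophils. The inhibitory receptor Pirb fell by 0.68 (adjusted p = 0.00863, and 0.093 when replicate number was a block).

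Of 27 integrin and adhesion genes tested 7 rose (Cd81, Cd9, Cd37, Cd82, Itgb2l, Itga6 and Pecam1) and 2 fell (Itgav and Itgb5), with a median change of -0.08. These counts stand against 5.11% and 2.44% of all genes. Without deficient 2 there were 5 falls, with 1 without control 1, control 4 or deficient 3 and 0 without deficient 1, control 2, deficient 4 or control 5. The call of Cd37 was lost without control 1, 4 or 5 or deficient 1 or 3. The tetraspanin Cd81 was read at 5.49, 5.8, 6.47 and 5.66 in controls and at 8.39, 7.51, 8.62 and 9.08 in deficient arrays (change 2.54 ± 0.32 SE, adjusted p = 5.83e-05), and Cd9 rose by 1.95 ± 0.29 (SE, adjusted p = 0.000252). Itgb2l, a β2-like integrin of neutrophils, went from 5.18, 4.74, 6.04 and 4.92 to 7.81, 6.91, 8.11 and 8.42 (change 2.59 ± 0.29 SE, adjusted p = 2.1e-05). Itga6, a laminin-binding integrin chain, rose by 1.15 and Pecam1 by 0.9. The general myeloid integrins Itgam and Itgb2 were at 9.91 and 9.65 in controls and at 10.08 and 9.98 in deficient arrays, and were not called (adjusted p = 0.43 and 0.314).

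Of 22 eicosanoid and lipid mediator genes 3 rose (Lta4h, Alox5 and Ltb4r1) and 3 fell (Hpgd, Cyp27a1 and Ptger4), with a median change of -0.03 (5 fell without deficient 2). The call of Ltb4r1 was lost without control 1 or 2 or deficient 1, 3 or 4, and that of Ptger4 without any single array but control 1 or deficient 2. Alox5, the 5-lipoxygenase, was read at 5.71, 5.65, 6.09 and 5.96 in controls and at 8.08, 7.26, 7.67 and 7.83 in deficient arrays (change 1.86 ± 0.16 SE, adjusted p = 1.24e-06). Lta4h, the leukotriene A4 hydrolase, went from 6.76, 6.81, 7.47 and 7.15 to 9.14, 8.1, 9.58 and 9.77 (change 2.1 ± 0.26 SE, adjusted p = 4.92e-05), and the groups of arrays were separate in both. Alox5ap, the partner of Alox5, had a change of -0.24 and was not called. Among 24 NADPH oxidase and antioxidant genes 6 rose and 0 fell, against 5.11% and 2.44% of all genes. The proton channel Hvcn1 rose by 1.29 ± 0.29 (SE, adjusted p = 0.00817) and the oxidase subunit Ncf1 by 0.68 (adjusted p = 0.0106). Cybb, the catalytic subunit, stood at 11.53 and 11.37 (adjusted p = 0.654). The rises numbered 4 without any single array but deficient 2. With the monocyte arrays alone 2 rose, and Ncf1 did not pass (adjusted p = 0.0745). Of 28 lysosomal and cathepsin genes 4 fell and 2 rose (Cd63 and Ctse), against 2.44% and 5.11% of all genes. Falls numbered 10 without deficient 2, 0 without deficient 4, 1 without any of the other 6 arrays and 1 when replicate number was a block. The call of Ctse was lost with the monocyte arrays alone (adjusted p = 0.159). Of 23 glucose uptake and glycolysis genes 4 rose and 1 fell. Slc2a3, a high-affinity glucose transporter, went from 4.9, 4.7, 4.99 and 4.55 to 7.66, 6.16, 7.35 and 7.24 (change 2.31 ± 0.22 SE, adjusted p = 3.96e-06). In the secretory pathway 1 of 31 genes rose, the oxidoreductase Ero1a, by 1.56 ± 0.21 (SE, adjusted p = 0.000121).

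Transcripts of TGF-β and BMP signalling, in which Zeb2 binds Smad proteins, moved both ways, with changes of -0.68 to 1. Of 28 tested genes 2 rose and 3 fell, against 5.11% and 2.44% of all genes. The median change was -0.18, against -0.03 over all genes tested. Falls numbered 6 without deficient 2 and 1 without deficient 1, 3 or 4 or control 2 or 4. Tgfbr2, the type II TGF-β receptor, fell from 6.24, 6.14, 6.08 and 6.01 to 5.63, 5.81, 5.67 and 5.29 (change -0.52 ± 0.12 SE, adjusted p = 0.0122), and every deficient array was below the controls. Bmpr1a, a BMP receptor, was called higher (adjusted p = 0.00209) but lay below the 40th percentile on every monocyte array, at 2.42 to 4.37.

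Lists for other blood cells held few tested genes, and their counts stand beside 5.11% of all genes higher and 2.44% lower. In eosinophil genes 2 of 6 rose, Cd300lf (1.18, adjusted p = 0.000312), a receptor of many myeloid cells, and Siglecf (1.1, adjusted p = 0.00618). Siglecf did not pass with the monocyte arrays alone (adjusted p = 0.052) or within set A (adjusted p = 0.333). In mast cell and basophil genes 2 of 6 rose, Kit and the histidine decarboxylase Hdc (1.35, adjusted p = 0.00127), which neutrophils read at 10.72. Among 14 plasmacytoid dendritic cell genes Atp1b1 (1.69) and Ccr9 (1.08) rose and Tcf4 and Tlr7 fell. Atp1b1 and Ccr9 lay below the 40th percentile on 4 of 4 controls and passed the filter only through the deficient arrays, as did Tlr3, the 1 pattern recognition receptor that rose, and Orc1, 1 of the 26 DNA replication genes, so their calls are no independent count. Of 8 B cell genes 0 were called, and of 9 T and NK cell genes 1, Cd5, whose call was lost without any of 6 single arrays (control 1, 2 or 4, deficient 1, 3 or 4). The 15 genes of conventional dendritic cells and MHC class II had 1 fall, Flt3, and a median change of -0.18.

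**Figure D4:**
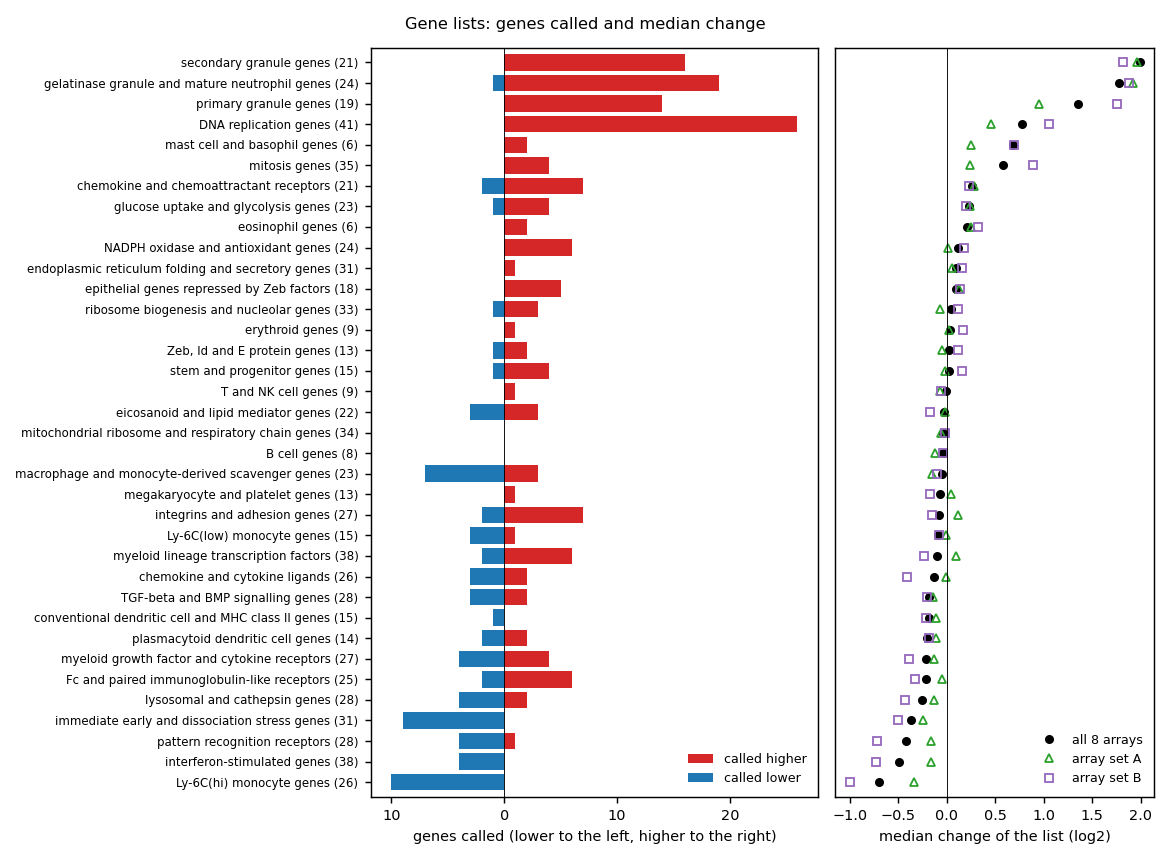
For each of 36 gene lists (tested members in brackets), the left panel gives the number of genes called higher (red, to the right) and lower (blue, to the left) in deficient monocytes, and the right panel the list's median change (log2) over all 8 arrays (black), in array set A (green triangles) and in array set B (purple squares). The 3 granule lists and DNA replication have medians of 0.77 to 1.99, and Ly-6C(hi) monocyte genes one of -0.7.

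To see which changes belonged to monocytes, the change was set against that between the same genotypes in neutrophils of the same marrow, a comparison with its own 4 control and 4 deficient arrays. The changes differed for 359 of 13387 genes (2.68%), 290 more positive and 69 more negative in monocytes, and 323 of the 359 were also called in monocytes. In neutrophils themselves 16 genes (0.12%) were called. The difference was 5.55 for Retnlg (adjusted p = 2.12e-08), 5.29 for Ly6g (adjusted p = 2.12e-08) and 5.56 for Retnla (adjusted p = 0.000179). It was 2.02 ± 0.21 (SE) for Cd24a (adjusted p = 3.33e-05). Among falls it passed for Abca9 (-1.66, adjusted p = 0.0451), Cd209a (-1.36, adjusted p = 0.00609), Atf3 (-1.26, adjusted p = 0.0129) and Tmem176b (-1.13, adjusted p = 0.0202). For 13 of 21 secondary granule genes and 16 of 24 gelatinase and mature neutrophil genes the changes differed, in genes that control neutrophils already express at high levels. For primary granule genes 5 of 19 did, for DNA replication 6 of 41 and for mitosis 0 of 35. With the replicate number as a block 223 genes differed, and without deficient 2 904.

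The array sets differed in the size of the changes. The median change of the risen genes was 0.67 in set A, against 1.06 in set B, and that of the fallen -0.48 and -0.82. Within set A, which holds deficient 2, 215 genes passed (192 higher, 23 lower), and within set B 1724 (714 lower). Of the set A calls 192 were called in the same direction in set B, 89.3% of the one list and 11.1% of the other. The sets share no arrays, but their calls are part of the fit over all arrays. What set deficient 2 and set A apart was not tested.

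**Figure D5:**
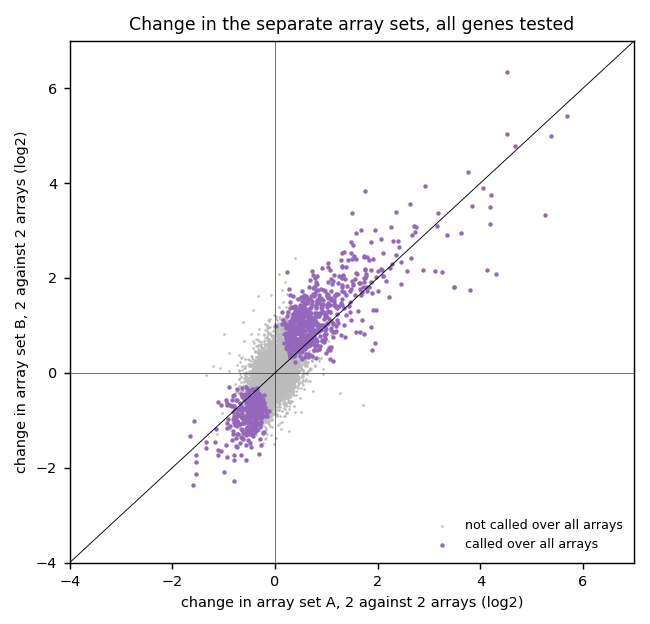
Each point is 1 of the 13387 genes tested, with its change (deficient minus control, log2) in array set A on the x axis and in array set B on the y axis, each from 2 against 2 arrays, purple for the 1010 genes called over all arrays and grey for the rest, with the diagonal drawn. The purple points lie at the lower left and upper right, and most of them lie farther from 0 on the y axis than on the x axis.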

How the data were processed

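RNA of sorted cells (RNAqueous-Micro) was amplified (Ovation PicoSL), biotin-labelled and hybridised to MoGene 1.0 ST arrays, per the labels' protocols. RMA is the method that the submitters' processing notes name for the deposited log2 intensities, and its software was not given in the sources. Array medians ran from 4.81 to 4.92, and no depth applies to arrays.

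Of 30177 probe sets, 21789 named 1 gene, and where a gene had several (999 genes) the one with the highest mean was kept, leaving 19938 genes. Kept for testing were 13387 genes whose level exceeded the 40th percentile of its array on 4 or more of 18 arrays. They were fitted over all groups with limma 3.58.1 (R 4.3.3; 12 residual degrees of freedom), with p-values adjusted by Benjamini-Hochberg over all of them. The fit was tested on simulated data. Figures used matplotlib 3.10.9. Promoters are from RefSeq (GRCm38.p6).

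Named by rule were Zeb2, the 15 highest and 15 lowest changes among called genes whose groups did not overlap (clone, predicted and small RNA symbols left out), the 10 smallest p of the difference between cell types, and of each list up to 4 called members with the largest change, or the 1 with the smallest p where none was called. Other members of the lists were named after their values were seen. Members and lists were chosen with earlier results of these data known. Same-numbered control and deficient monocyte arrays deviated together from their group means (correlations 0.372, 0.428 and 0.290 for numbers 1, 2 and 4), so the replicate number was also fitted as a block. Deficient 3 and control 5 have no partner of their number, so they add nothing to the change in that setting. It rests on the pairs 1, 2 and 4 and is not an adjustment of the full comparison. Pairs of unlike number in set B were as high (0.348 for control 4 with deficient 3, 0.330 for control 5 with deficient 4), so the number and the set are not separated by this check. Other alternatives were single arrays left out, monocyte arrays only, array set as a block, each set alone, quantile normalization and other filters. The array sets come from the order of listing and the arrays' deviations, not from a label.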

Additional observations from a re-analysis of the deposited data

Results flagged for a closer look

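Among 140 groups of 4 arrays looked at, for the leading genes and the list means, 11 held 1 array that stood far from the other 3, and chance gives about 1 in 20. Deficient 2 was that array for Actn1 (6.58), Cd209a (5.06) and Cd24a (10.76), and for the mean levels of secondary granule genes (9.48), gelatinase granule and mature neutrophil genes (7.69) and B cell genes (4.75). Apart from the B cell genes, it lay toward the controls in each. Control 1 stood apart for Zeb2 (10.08) and for the pattern recognition receptors (7.12), control 2 for the growth factor and cytokine receptors (7.61) and the lysosomal genes (8.83), and control 4 for Clec4b2 (5.74).

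The change between genotypes differed between monocytes and neutrophils for 359 genes by limma's test of the difference. Among all genes tested this was 2.68%, and among 34 leading genes it did so for 22. Some of the 34 were chosen by the smallest p of this same test. The others, Zeb2 apart, were chosen for the highest or lowest changes in monocytes. The count of 22 therefore follows in part from the choice and is no separate result. The change in monocytes minus that in neutrophils was 5.56 for Retnla, 5.55 for Retnlg, 5.29 for Ly6g, 4.77 for Stfa3, 4.52 for Chil1 and 4.5 for Ltf. It was 3.9 for Il1f9, 3.81 for Slco4c1, 3.8 for Clec4b2, 3.72 for Cldn1, 3.69 for Cxcr2, 3.49 for Gca, 3.26 for Lcn2 and 3.16 for Actn1. Smaller positive differences were 2.68 for Il18rap, a chain of the interleukin-18 receptor, 2.02 for Cd24a and 1.47 for Ifit1bl2. It was negative for Abca9 (-1.66), Cd209a (-1.36), Atf3 (-1.26), Kctd12b (-1.17) and Tmem176b (-1.13).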

How the results depend on the processing

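Directions held for the 118 genes named by rule and called: none reversed under any of the 19 settings run. The genes were chosen by their call over all arrays, and every setting refits those arrays or a part of them. The agreement in direction is therefore no independent support. Of the 118 genes 87 passed with the monocyte arrays alone, 56 within set A, 114 within set B, 97 when replicate number was a block, and 94 to 118 without single arrays. The replicate block moved the genes lower to 200, the difference between cell types to 223, and the medians of oxidase genes to 0.06 and of glycolysis genes to 0.27. Called genes numbered 500 with the monocyte arrays alone (397 higher, 103 lower), 1749 with set as a block (733 lower), 215 within set A (192 higher, 23 lower), 1724 within set B (714 lower) and 620 to 2001 without single arrays (446 to 1050 higher, 132 to 951 lower). Genes changed at least 2-fold numbered 166 in set A, 619 in set B and 233 to 498 without single arrays. The difference between cell types was called for 727 genes with set as a block, 72 in set A, 731 in set B and 245 to 904 without single arrays. Zeb2 passed within set B (-0.77). The cause of these shifts was not tested, but each set holds fewer arrays.

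List medians in set A moved to -0.34 for Ly-6C(hi) genes, 0.25 for mast cell, -0.11 for plasmacytoid, 0.04 for megakaryocyte, 0.09 for transcription factor, -0.16 for pattern recognition, 0.12 for adhesion, 0.01 for oxidase, -0.16 for interferon-stimulated, 0.45 for DNA replication and -0.07 for ribosome biogenesis genes. In set B they moved to -1 for Ly-6C(hi), 0.17 for erythroid, 0.16 for stem cell, -0.24 for transcription factor, 0.11 for Zeb and Id, -0.41 for ligand, -0.72 for pattern recognition, 0.18 for oxidase, -0.17 for eicosanoid, 1.05 for DNA replication and 0.12 for ribosome biogenesis genes. Filters, which change the genes tested, moved medians too. The stricter filter gave 1.14 for eosinophil, 1.41 for mast cell, -0.55 for scavenger, -0.35 for conventional dendritic cell, -0.46 for plasmacytoid, 0.29 for erythroid, 1.68 for stem cell, 0.38 for chemoattractant receptor and 0.28 for glycolysis genes. The filter on the compared arrays gave 0.62 for eosinophil, -0.32 for scavenger, -0.34 for conventional dendritic cell, 0.21 for stem cell and 0.02 for oxidase genes, and no filter gave 0.01 for mast cell, -0.08 for plasmacytoid and 0.02 for chemoattractant receptor genes. Without single arrays the medians ran from -0.33 to -0.08 for conventional dendritic cell, -0.18 to -0.05 for transcription factor, -0.24 to -0.09 for TGF-β, 0.13 to 0.33 for chemoattractant receptor, 0.04 to 0.19 for oxidase, -0.08 to -0.02 for eicosanoid and 0.19 to 0.28 for glycolysis genes.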
